A study of Rattus norvegicus with 2 samples.

Results

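The expression of 10 rat genes that bring fatty acids into cells or turn them into acyl-CoA was read in C6 glioma cells with and without the acyltransferase tafazzin. They were taken by symbol, as the rows of the deposited table of all transcript clusters whose gene symbol is Acsl1, Acsl3, Acsl4, Acsl5, Acsl6, Acsbg1, Slc27a1, Slc27a3, Slc27a4 or Cd36. A transcript cluster is a group of array probes for a gene or transcript. Each of the 10 genes had 1 cluster of its own, out of 23188 clusters in all. By their identifiers the clusters lie on chromosomes 16 (Acsl1 and Slc27a1), 9 (Acsl3), X (Acsl4), 1 (Acsl5), 10 (Acsl6), 8 (Acsbg1), 2 (Slc27a3), 3 (Slc27a4) and 4 (Cd36). The study compared C6, an established rat glioma cell line labelled wild type, with C6 TAZ, the same line after knock-out of tafazzin by CRISPR-Cas9. Both were grown in the same DMEM medium with 3% serum and antibiotics. For each, RNA of 3 cultures was pooled and measured on 1 Affymetrix Clariom S rat array, and the sources used here do not say whether the C6 TAZ cells come from 1 clone. The study's cholesterol measurements give C6 TAZ cells under more than 1 label, and which of these was put on the array is not stated.

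With 1 array per condition, the spread between cultures is not measured, no difference has a replicate check and no p-value or SD is given. Higher and lower refer to the C6 TAZ array against the C6 array. A difference is the log2 signal in C6 TAZ minus that in C6, so that a difference of 1 is 2-fold. The lowest signal was 2.60 and the highest 18.97, and the median was 6.39 in C6 and 6.40 in C6 TAZ. In RNA of whole cultures, fewer cells of a kind and less RNA per cell cannot be told apart. The deposited files name the arrays in ways that contradict each other. The workbook heads its columns C6 and C6 TAZ, while in the table that gives each sample its own column the same signals stand exchanged, in 100% of the clusters. The workbook's names are those the study itself uses and are kept here. With the other names every difference changes its sign. Tafazzin itself read 10.34 in C6 and 9.84 in C6 TAZ on the log2 scale, which does not decide between the names, as the position of its probes relative to the disruption was not known.

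Free fatty acids are inert until an acyl-CoA synthetase joins them to coenzyme A in a reaction that uses ATP. The products feed phospholipids, triglycerides, cardiolipin and beta-oxidation, and tafazzin itself moves acyl chains between phospholipids and cardiolipin. The ACSL enzymes activate long-chain fatty acids and differ in their place in the cell and in the acyl chains they prefer. The FATP proteins, encoded by the Slc27a genes, promote uptake of long-chain fatty acids and carry acyl-CoA synthetase activity themselves, and CD36 is a fatty acid receptor and translocase of the plasma membrane.

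The 10 genes did not move as a block. The long-chain synthetase genes Acsl3, Acsl4 and Acsl1 were at least 2-fold lower in C6 TAZ, and the transporter gene Slc27a1 was higher by 3.43-fold. The other 6 lay within 2-fold. Among all 23188 clusters, 2.1% were lower and 2.34% higher by 2-fold or more. The median difference of the 10 genes was -0.24, and that of all clusters was 0.00. ACSL genes were among those the study itself picked out on these arrays, so their direction is no independent evidence.

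**Figure D1:**
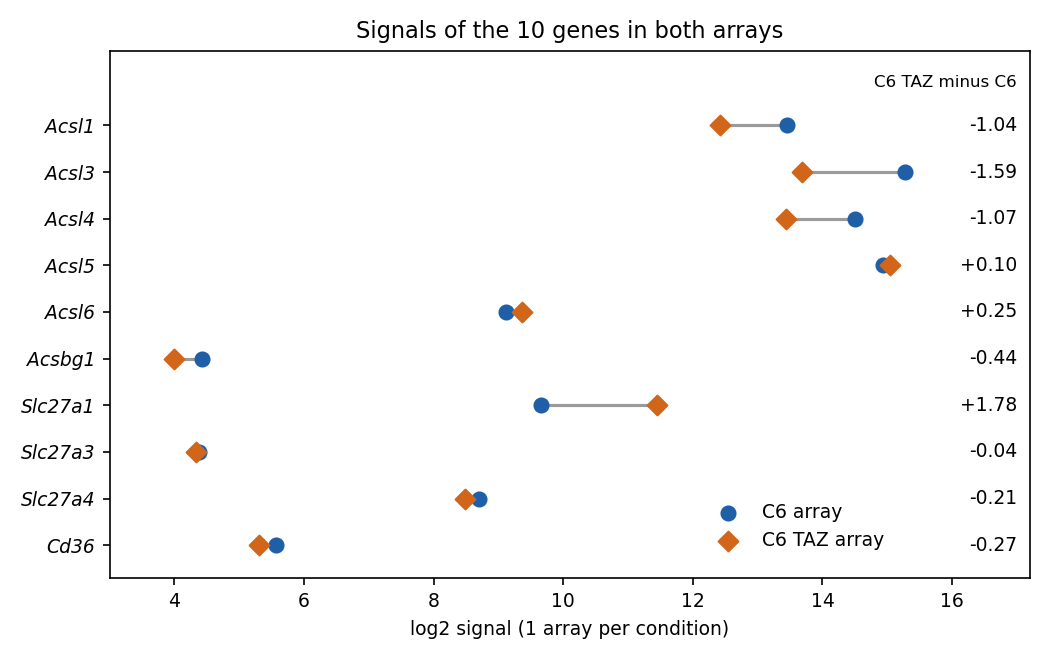
Log2 signal (horizontal axis) of the 10 genes (rows) in the C6 array (circles) and the C6 TAZ array (diamonds), with the difference C6 TAZ minus C6 at the right. The widest gaps are those of Slc27a1 (1.78, higher in C6 TAZ) and Acsl3 (-1.59, lower), while the symbols of Slc27a3 nearly coincide (-0.04).

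Acsl3 encodes a long-chain synthetase of the endoplasmic reticulum and of lipid droplets. It read 15.28 (log2) in C6 against 13.69 in C6 TAZ, which differ by -1.59 (3.01-fold lower). This was the farthest downward of the 10 genes, and 80 of the 23188 clusters (0.345%) were as low or lower. Acsl4, whose enzyme prefers arachidonic acid and other polyunsaturated fatty acids, read 14.51 (log2) in C6 against 13.44 in C6 TAZ. Its difference was -1.07, or 2.10-fold lower. Acsl1 encodes the main long-chain synthetase of fat, heart and liver, where it supplies triglyceride synthesis and beta-oxidation. Its log2 signal was 13.46 in C6 against 12.42 in C6 TAZ (difference -1.04, 2.06-fold lower). Acsl1 and Acsl4 thus lay just past the 2-fold line, with 1.80% and 1.63% of all clusters as low or lower, and without replicates it is not known on which side of that line other cultures would lie.

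The remaining long-chain synthetases ran the other way by small amounts. Acsl5, whose enzyme is found at mitochondria and the endoplasmic reticulum, gave 14.94 in C6 and 15.04 in C6 TAZ (difference 0.10). Acsl6, known mostly from brain and for activating docosahexaenoic acid, read 9.11 (log2) in C6 against 9.36 in C6 TAZ (difference 0.25). Of all clusters, 81.5% were at least as far from 0 as Acsl5 and 55.9% as far as Acsl6. The amino acid sequences of Acsl1, Acsl5 and Acsl6 are known to form one branch of the family and those of Acsl3 and Acsl4 another. No protein sequences were compared here. Both genes of the Acsl3 branch were lower by 2-fold or more, whereas in the Acsl1 branch Acsl1 was and Acsl5 and Acsl6 were not. Acsl4 (-1.07) and Acsl1 (-1.04) nearly coincide across this division, and whether the differences follow the branches was not tested.

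Slc27a1 encodes FATP1, the transporter known from muscle and fat, where insulin brings it to the cell surface. It read 9.66 (log2) in C6 against 11.44 in C6 TAZ, which differ by 1.78. It was the only one of the 10 genes higher by 2-fold or more, and 61 of the 23188 clusters (0.263%) were as high or higher. Slc27a4 encodes FATP4, which is needed for the lipid barrier of the skin. It read 8.70 (log2) in C6 against 8.49 in C6 TAZ, which differ by -0.21. Slc27a3, encoding FATP3, was dim, at 4.38 and 4.34 (difference -0.04). The family members outside the 10 genes were also within 2-fold. Slc27a6 was at 5.52 in C6 (difference 0.48), and the liver genes Slc27a2 (3.85 and 3.61) and Slc27a5 (4.24 and 4.15) had low signals. Over the 6 Slc27a genes the median difference was -0.07.

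Acsbg1 and Cd36 had low signals in both arrays. Acsbg1 encodes the bubblegum synthetase, which activates long and very long chains in brain, adrenal gland and testis. Its log2 signal was 4.43 in C6 against 3.99 in C6 TAZ (difference -0.44). Cd36 read 5.57 (log2) in C6 against 5.30 in C6 TAZ, a gap of -0.27 that 52.8% of all clusters equalled or exceeded in size. Together with Slc27a3, these genes lay below the median signal of the arrays, and how far they stood above background was not tested. CD36 is a protein of macrophages, endothelium and fat cells. The defining genes of macrophages were low, with Ptprc at 4.94 in C6 and 4.76 in C6 TAZ and 5 of 6 marker genes under a log2 signal of 6. The exception was Cd14, at 12.39 and 11.94. Of the endothelial genes 4 of 5 were under 6, the other being Tek at 7.05 in C6 and 5.58 in C6 TAZ (difference -1.47). The fat cell genes ran from 4.33 to 6.10, and the liver genes from 3.57 to 8.11, the highest being Ttr (difference -1.04). Whether other cells had a part in the signal of Cd36 was not tested. The glial genes that fit the label were bright for Vim (18.72 and 18.77), Nes (13.22 and 13.08) and S100b (9.82 and 10.40), and low for Gfap (5.73 and 6.38).

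The differences were also set beside those of clusters of like signal. In 7 of the 10 genes the log2 signal was at least 6 in one of the arrays, and these held all 4 genes past 2-fold. Among the 12824 clusters that met the same limit, 2.65% were lower and 3.29% higher by 2-fold or more. Acsl1, Acsl3, Acsl4 and Acsl5 had a mean log2 signal of at least 12, and 3 of these 4 genes were lower. Of the 3186 clusters that bright, 1.6% were lower and 1.69% higher by 2-fold or more. Between mean log2 signals of 14 and 19, where Acsl3 and Acsl5 lay, 9 in 10 clusters had differences between -0.57 and 0.56. The corresponding range was -0.70 to 0.70 for mean signals from 12 to 14, the range of Acsl1 and Acsl4, and -0.80 to 0.80 for those from 10 to 12, the range of Slc27a1. Any gene past 2-fold lies outside these ranges by the way it was chosen, so they describe the spread of other clusters and add no support for the 4 genes.

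**Figure D2:**
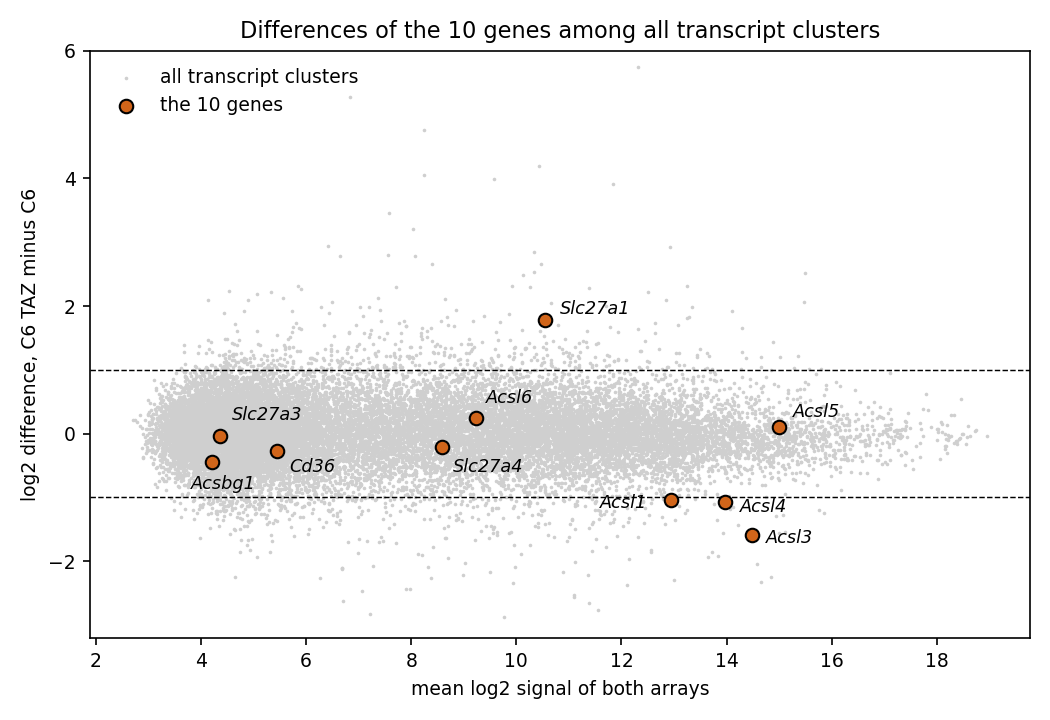
Log2 difference, C6 TAZ minus C6, against the mean log2 signal of both arrays for all 23188 transcript clusters (grey) and the 10 genes (orange), with dashed lines at 2-fold. Acsl1, Acsl3 and Acsl4 lie below the lower line at mean signals of 12.94, 14.48 and 13.97, and Slc27a1 lies above the upper line at 10.55.

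The sequence before the start of the genes farthest from 0 is shown because it is a part of a gene on which transcription factors of lipid supply can act. Sterols act through SREBP proteins, which bind sterol regulatory elements (SRE), and fatty acids through PPAR:RXR pairs, which bind repeats called DR1. The RefSeq promoter table (GRCr8 build) held all 10 genes, and its 250 bases before each start are used here. Capitals mark CCAAT boxes (CCAAT) and GC boxes (GGGCGG), each on either strand.
Acsl3, chr9:87563351-87563600, plus strand: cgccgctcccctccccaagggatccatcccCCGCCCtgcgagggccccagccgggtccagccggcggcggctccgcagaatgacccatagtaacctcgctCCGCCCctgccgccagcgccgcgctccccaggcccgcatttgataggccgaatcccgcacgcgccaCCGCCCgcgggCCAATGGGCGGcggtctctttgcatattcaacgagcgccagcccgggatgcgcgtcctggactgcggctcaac
Acsl4, chrX:110803262-110803511, minus strand: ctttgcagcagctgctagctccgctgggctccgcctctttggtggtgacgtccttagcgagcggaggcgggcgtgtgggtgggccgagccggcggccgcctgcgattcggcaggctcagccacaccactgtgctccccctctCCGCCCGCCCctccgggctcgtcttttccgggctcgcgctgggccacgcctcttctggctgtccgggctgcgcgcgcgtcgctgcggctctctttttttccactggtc
Slc27a1, chr16:18312717-18312966, plus strand: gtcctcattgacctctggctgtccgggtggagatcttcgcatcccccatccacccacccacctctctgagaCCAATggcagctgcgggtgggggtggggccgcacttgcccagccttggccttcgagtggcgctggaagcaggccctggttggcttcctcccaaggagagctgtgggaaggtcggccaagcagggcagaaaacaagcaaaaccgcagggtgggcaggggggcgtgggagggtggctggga

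The windows of Acsl3 and Acsl4 were rich in G and C, at 72.4% and 70.4%, against a median of 54.0% over the promoters of 21851 protein-coding genes. That of Slc27a1 held 65.6%. Acsl3 had 4 GC boxes and 1 CCAAT box, which lies directly before one of the GC boxes. Acsl4 had 2 overlapping GC boxes and no CCAAT box, and Slc27a1 had 1 CCAAT box and no GC box. Over the 10 genes, 6 windows held a GC box and 5 a CCAAT box, against 38.9% and 35.0% of all 21851. The other motifs were searched on both strands too. The SRE (TCACNCCAC), the E-box (CACGTG) and the DR1, taken as a pair of AGGTCA repeats with 1 base between them, had no match in any of the 10 windows, and were in 0.897%, 6.16% and 0.0229% of all promoters. This says only that these letters are not in these windows. The table's start of Acsl1 lies 21718 bases inside the gene as RefSeq draws it, so its window, with 40.0% G and C, need not be the promoter used in these cells, and it is not printed. The starts of Slc27a1 and Acsl4 lie 1108 and 155 bases inside, so their printed windows need not be the promoters used either. The windows of Acsl6 and Cd36 likewise begin far inside their genes, at 11493 and 37494 bases. Acsl5, which was within 2-fold, had 50.4% G and C and none of the motifs, while Acsbg1 and Slc27a3 each had 1 CCAAT box and 2 GC boxes and Slc27a4 had 1 GC box.

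The genes beside the 4 genes past 2-fold had smaller differences. The 4 genes were picked for passing 2-fold and their neighbours were not, so such a gap largely follows from the choice. Whether the chromosome regions had a part in the differences was not tested. Neighbours were the 3 nearest protein-coding genes with a cluster on each side in the gene order of GRCr8. None of the 6 neighbours of Acsl3 was past 2-fold. They ran from -0.73 for Hdac1l to 0.47 for Kcne4, and Mogat1, encoding a monoacylglycerol acyltransferase, was at -0.12. The neighbours of Acsl4 lay between -0.39 and 0.10 and those of Slc27a1 between -0.30 and 0.45. The latter include Pgls, a gene of the pentose phosphate pathway that overlaps Slc27a1 in this annotation and had a difference of -0.17. Beside Acsl1, the centromere gene Cenpu came close to the 2-fold line, reading 8.37 in C6 and 7.41 in C6 TAZ (difference -0.96), while Slc25a4, which encodes the ADP/ATP carrier of mitochondria, was at -0.11. The neighbours of Acsl5 spread more widely than Acsl5 itself, from -0.96 for Gucy2g to 1.15 for Gpam, with Vti1a and Tcf7l2 both at 0.72, while Zdhhc6, which overlaps Acsl5 in this annotation, had the same difference of 0.10. Beside Acsl6, Fnip1 was at 0.71 and Rapgef6 at 0.94. Over the 60 neighbours of all 10 genes, 3 were at least 2-fold higher and 0 lower (median 0.00). For comparison, 2.34% of all clusters were higher and 2.1% lower by that much. Whether the neighbours differ from all clusters in this was not tested. The 3 were Gpam near Acsl5 (1.15), Csf2 near Acsl6 (1.13) and Cercam near Slc27a4 (1.13), named after their values were seen. Csf2 (4.26 in C6 and 5.39 in C6 TAZ) and Cercam (4.14 and 5.27) were dim, below the median signal of the arrays.

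**Figure D3:**
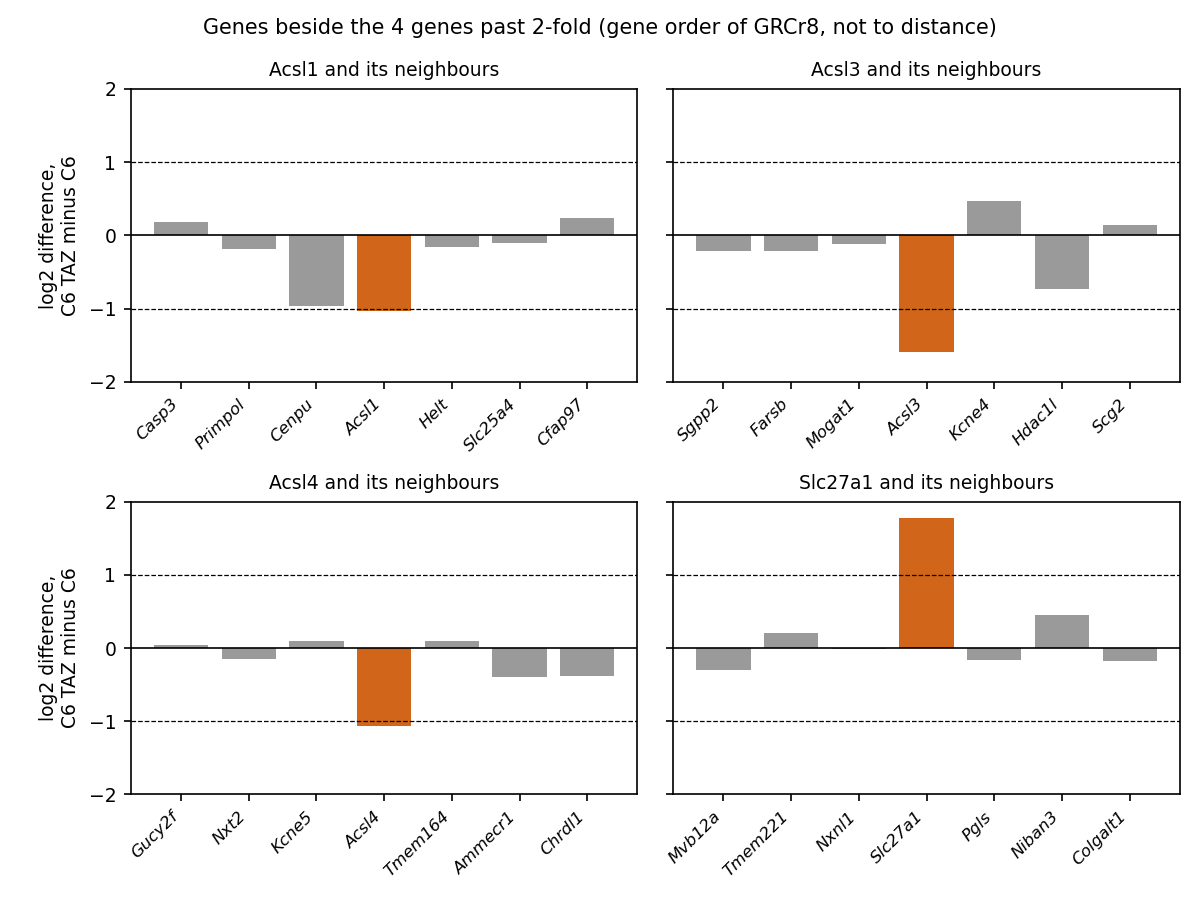
Log2 difference, C6 TAZ minus C6 (bars, from 0), of Acsl1, Acsl3, Acsl4 and Slc27a1 (orange) and of their 3 neighbours on each side in GRCr8 gene order (grey), with dashed lines at 2-fold. No neighbour passes 2-fold, and Cenpu beside Acsl1 comes nearest at -0.96. The genes in orange were picked for passing 2-fold and the neighbours were not.

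Other acyl-CoA synthetase genes include those for shorter chains and other acids, along with Acsbg2 and the Slc27a genes outside the 10. Of these 16 genes, 2 were at least 2-fold lower and 0 higher (median -0.16). Of all clusters, 2.1% were lower and 2.34% higher by that much. Acss2, which makes acetyl-CoA from acetate in cytosol and nucleus, read 11.20 (log2) in C6 against 8.32 in C6 TAZ, which differ by -2.88. Aacs, the acetoacetyl-CoA synthetase that turns ketone bodies into lipid precursors, read 11.07 (log2) in C6 against 9.63 in C6 TAZ, which differ by -1.44. The mitochondrial acetate enzyme gene Acss1 had low signals of 4.08 and 4.57, and Acss3 of 3.67 and 3.91. Acsm1, a gene of medium-chain activation, was at 8.45 in C6 and 9.20 in C6 TAZ (difference 0.75). Its relatives Acsm2, Acsm3, Acsm4 and Acsm5 were dim, with differences from -0.58 for Acsm5 to -0.32 for Acsm2. Acsf2 (0.19), Acsf3 (-0.23), the malonyl-CoA synthetase of mitochondria, and Aasdh (0.44) lay within 2-fold, as did the bubblegum gene Acsbg2 at 4.20 and 5.09 (difference 0.89). Over all 25 acyl-CoA synthetase genes, the 9 among the 10 genes included, 5 were lower and 1 was higher by 2-fold or more.

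Genes that handle fatty acids before and after activation were mostly within 2-fold. So were most of all clusters, of which 2.1% were lower and 2.34% higher by 2-fold or more. Of 17 genes for fatty acid and acyl-CoA binding, none passed it (median 0.03), and those farthest from 0 at a log2 signal of at least 6 were Acbd6 (-0.69) and Dbi (-0.55), which encode acyl-CoA binding proteins. Fabp5, the epidermal fatty acid binding protein, was bright at 12.87 in C6 and 12.61 in C6 TAZ. Acyl-CoA thioesterases undo the work of the synthetases. A list of 14 thioesterase genes held these and Olah, an oleoyl-ACP hydrolase, which releases medium chains from fatty acid synthase. Olah was lower, at 8.63 in C6 and 5.80 in C6 TAZ (difference -2.83), while the acyl-CoA thioesterase genes were all within 2-fold. The median of that list was 0.11. None of 8 genes of the carnitine route into mitochondria passed 2-fold (median 0.32), with the muscle palmitoyltransferase gene Cpt1b at 0.78 and the acetyltransferase gene Crat at -0.58. In glycerolipid synthesis 1 of 14 genes passed it (median 0.05). This was Gpam, the mitochondrial enzyme that starts glycerolipid synthesis by putting an acyl-CoA on glycerol phosphate, reading 11.51 in C6 and 12.66 in C6 TAZ (difference 1.15). None of 13 genes of lipid droplets and lipases did (median 0.02), and those farthest from 0 at a log2 signal of at least 6 were the triglyceride lipase gene Pnpla2 (0.53) and the droplet gene Plin3 (0.47). The dim lipoprotein lipase gene Lpl was at 0.72.

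Among 12 genes of regulators of fatty acid and sterol supply, Insig1 (-1.29) and Srebf2 (-1.07) were past 2-fold, both lower, and the list had a median of 0.21. Insig2 (0.69) and the dim Srebf1 (0.66, at 4.15 in C6 and 4.81 in C6 TAZ) were higher, within 2-fold. Of the 12 differences, 5 were below 0 and 7 above. Ppara, the receptor under which Acsl1 and Slc27a1 are known to respond to fatty acids, was at 6.45 in C6 and 7.25 in C6 TAZ (difference 0.80). Pparg had low signals of 4.56 and 4.95, below the median of the arrays, so a change in its RNA could be missed here. Whether these regulators had a part in the differences of the synthetase genes was not tested. Over the 94 genes of these 7 lists, 5 were lower and 1 was higher by 2-fold or more, with a median of 0.07. The shares over all clusters were 2.1% lower and 2.34% higher.

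**Figure D4:**
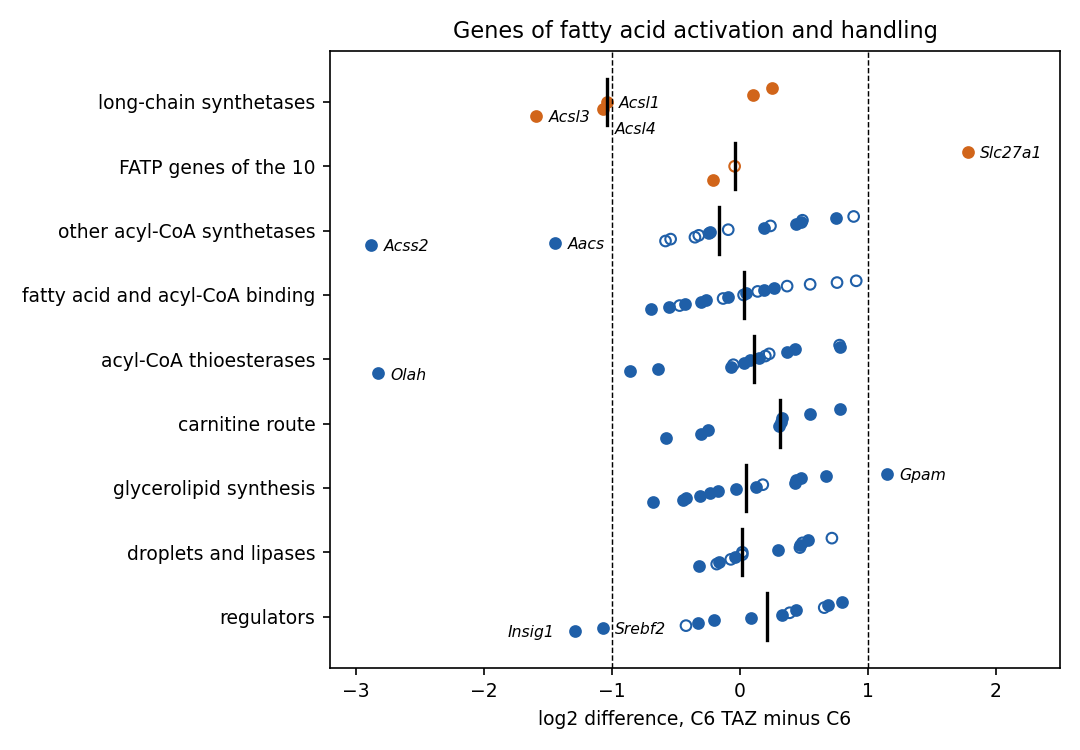
Log2 difference, C6 TAZ minus C6, of the long-chain synthetase and FATP genes among the 10 (orange) and of 7 further lists (blue), 1 point a gene, open where the log2 signal was under 6 in both arrays. Black bars are medians and dashed lines mark 2-fold, and the named points are the genes past it, from Acss2 at -2.88 to Slc27a1 at 1.78.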

How the data were processed

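RNA of wild-type C6 and of C6 TAZ cells was measured on 2 Affymetrix Clariom S rat arrays, 1 per condition, each with RNA of 3 pooled cultures. Per transcript cluster, the authors deposited 1 log2 signal for each array, which the submitters' processing notes link to Affymetrix Expression Console, with an rn6 annotation named in the workbook. Summarization and normalization: not given in the sources used here. Deposited fold changes are the authors' own comparison and were not used, nor was a sheet of selected peptidases. The methods' analysis of variance cannot be run on 1 array per condition.

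Differences were taken as C6 TAZ minus C6 without further scaling and rounded to 2 decimals. A gene counted as past 2-fold at a log2 difference of 1 or more in size. Clusters with the gene's symbol alone were used and averaged, or a shared cluster where no other exists. Symbols were set against RefSeq (GRCr8), in which all 10 genes were found. The counting code was run on simulated data with shifts well past 2-fold. That checks the code and not the calls of genes near the 2-fold line. All 10 genes are named, with every other acyl-CoA synthetase, and in each other list the genes past 2-fold or else the 2 farthest from 0 at a log2 signal of at least 6. Further names are given as examples. The genes and lists were chosen with earlier results of these data known. Alternatives were other scalings of the arrays, the names of the table with a column per sample, the choice of clusters, limits on signal, a 1.5-fold threshold and the mean instead of the median. Work was done in Python 3.11.15 with pandas 2.3.3, numpy 2.4.6 and matplotlib 3.10.9.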

Additional observations from a re-analysis of the deposited data

How the results depend on the processing

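With the names of the table that has a column per sample, 1 of the 10 genes was lower and 3 were higher by 2-fold or more, and their median was 0.24. The differences were then 1.04 for Acsl1, 1.59 for Acsl3, 1.07 for Acsl4 and -1.78 for Slc27a1, and likewise 2.88 for Acss2, 1.44 for Aacs, 2.83 for Olah, -1.15 for Gpam, 1.07 for Srebf2 and 1.29 for Insig1. This follows from the exchange of the columns. The names kept above are those the study uses, and it reports the directions of its array comparison by RT-qPCR too, for selected genes outside the 10. Centring on the median of all clusters, centring on ribosomal protein genes, quantile normalization, the brightest cluster of a gene, clusters with several symbols, a 1.5-fold threshold and minimum log2 signals of 6 or 8 each left the counts at 3 lower and 1 higher. Under the scalings no difference of the 10 genes moved by more than 0.07. The comparison with the deposited fold changes was not run, since these are the authors' own comparison. Quantile normalization shifted Acsl1 to -1.01 and put Acsl4 exactly on the 2-fold line. The mean of the 10 differences was -0.25. Slc22a5, with more than 1 cluster, moved from 0.33 to 0.66 with its brightest cluster, and no other of 104 genes moved by 0.1 or more there. No paired analysis was possible because each condition has 1 array, and no replicate could be left out.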

Other observations

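Acsl4 supplies arachidonoyl-CoA. Genes that release and oxidise arachidonic acid, and genes that attach acyl chains to phospholipids, were read from the same arrays. These lists were written after the values of the synthetase genes were known. Of 4 genes that attach acyl chains to phospholipids, not all of them particular to arachidonate, 1 was lower and 1 higher by 2-fold or more. The other 2 were within 2-fold, and the median of the 4 was -0.12. Of all clusters, 2.1% were lower and 2.34% higher by that much. Lpcat3, whose enzyme puts arachidonoyl-CoA into phospholipids, read 13.44 (log2) in C6 against 12.38 in C6 TAZ (difference -1.06). Lpcat2, an enzyme of inflammatory cells that also makes platelet-activating factor, read 7.56 and 9.21 (difference 1.65). Mboat7, which builds arachidonate into phosphatidylinositol, was at -0.04, and Lclat1 was at -0.20. Of 10 genes of arachidonate oxidation 1 was past 2-fold, the cyclooxygenase gene Ptgs1, with 14.69 in C6 and a lower 13.54 in C6 TAZ (difference -1.15). Ptgs2 and the lipoxygenase genes Alox5, Alox12 and Alox15 had log2 signals under 6 in both arrays. None of 6 phospholipase A2 genes passed 2-fold, with Pla2g4a at -0.06.

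Acsl4 and Acsl3 are also known from ferroptosis, in which oxidised polyunsaturated phospholipids kill cells. Among all clusters, 2.1% were lower and 2.34% higher by 2-fold or more. Of 11 genes of lipid peroxide defence and iron handling, 1 was past 2-fold. This was Tfrc, the transferrin receptor of iron uptake, with 14.71 in C6 and a lower 13.16 in C6 TAZ (difference -1.55). Gpx4, the peroxidase of membrane lipids, was at 0.50, the cystine carrier gene Slc7a11 at 0.19, the ferritin gene Fth1 at 0.62 and the haem oxygenase gene Hmox1 at 0.74. No cell death or lipid peroxidation was read from these files.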
